A study of Homo sapiens with 16 samples.

Results

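The narrow H3K4me3 regions described here are the peaks of the siControl H3K4me3 list that span 600 bp or less, taken as end minus start of each peak. The rule kept 3138 of 18596 H3K4me3 peaks (16.9%). They covered 1.37 Mb of the 21.5 Mb under H3K4me3 peaks, or 6.38% of those bases. Members were chosen by measured width, and width, strength and position come from the same peak call, so these values are given as a description with no test.

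The study mapped G-quadruplex (G4) DNA and H3K4me3 in A549 cells, an established line from a human lung carcinoma, by CUT&Tag, an assay in which an antibody bound to chromatin recruits a transposase, and this enzyme inserts sequencing adapters nearby. The 16 libraries form 4 groups of 4 replicates. All cells received 71 nM siRNA by lipid transfection for 48 h, and Drosophila chromatin was added to every sample. The first group carried the control siRNA (siControl) and was profiled with BG4, an antibody that binds folded G4 DNA. Another 2 groups carried siRNA against BAZ2A (siBAZ2A) or BAZ2B (siBAZ2B) and were profiled with BG4. The last group carried the control siRNA and was profiled with an antibody to H3K4me3. H3K4me3 in the knockdowns and the levels of BAZ2A and BAZ2B were not analysed here. Each group is present as 1 list of the peaks that 2 or more replicates share, per the labels at the positions of 1 replicate. The list gives no value per replicate and no read depth. Differences between conditions therefore could not be tested, and the intervals below cover counting error over peaks only.

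H3K4me3 is a histone mark laid down by SET1 and MLL methyltransferase complexes around the start sites of active genes. Broad domains of the mark flank strongly used CpG-island promoters, and small patches are also found at weak or alternative promoters and at some active enhancers. A G4 forms when guanine-rich DNA folds into stacked guanine tetrads, and in living cells BG4 signal lies largely in open promoter chromatin. BAZ2A pairs with the ATPase SNF2H in NoRC, a chromatin remodeller of the nucleolus known for silencing ribosomal genes, and BAZ2B is its bromodomain-containing paralog.

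The narrow peaks had a median width of 434 bp, with quartiles of 353 and 513 bp. Wider peaks had a median of 1241 bp. The smallest width in the list was 305 bp, and 346 narrow peaks (11.0%) had exactly that width. Just inside the limit, the 115 peaks of 591 to 600 bp had a median fold enrichment of 6.69 and a median −log10 q of 9.55. Just outside it, the 126 peaks of 601 to 610 bp had medians of 7.49 and 10.7. Fold enrichment is the authors' ratio of signal at the summit to local background, −log10 q is the authors' adjusted significance of the call, and both were used only within a list. BG4 peaks of siControl, siBAZ2A and siBAZ2B, which are described further on, overlapped 5, 8 and 5 of the peaks just inside (4.35%, 6.96% and 4.35%) and 9, 14 and 16 of those just outside (7.14%, 11.1% and 12.7%). All these values were lower just inside the limit. The intervals of the BG4 shares overlapped, for siBAZ2B at 1.87 to 9.78% and 7.97 to 19.6%.

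Narrow peaks were weaker than wider ones on both scales. Their median fold was 5.98 (95% interval 5.81 to 6.14, n = 3138) against 8.37 for the 15458 wider peaks and 8.03 for all peaks. The quartiles of the narrow peaks were 4.79 and 7.83. Significance differed more than fold, with a median −log10 q of 7.41 in narrow and 36.3 in wider peaks. A −log10 q under 5 was seen in 744 narrow peaks (23.7%) and in 163 wider peaks (1.05%).

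Fold did not rise with width over the whole list. Its median was 5.29 at 305 to 400 bp, 6.72 at 401 to 500 bp and 6.99 at 501 to 600 bp. It went on to 9.92 at 801 to 1000 bp and was down to 5.47 above 2000 bp. Across narrow peaks the Spearman correlation of width with fold was 0.35, and across wider peaks it was −0.36. Peaks within a list are not replicates, so these correlations are descriptions. The 100 peaks of highest fold included 19 narrow ones, near their 16.9% share of the list. The top 50 by fold included 7, the top 500 included 51 and the top 1000 included 88. By −log10 q the top 1000 included 3.

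**Figure D1:**
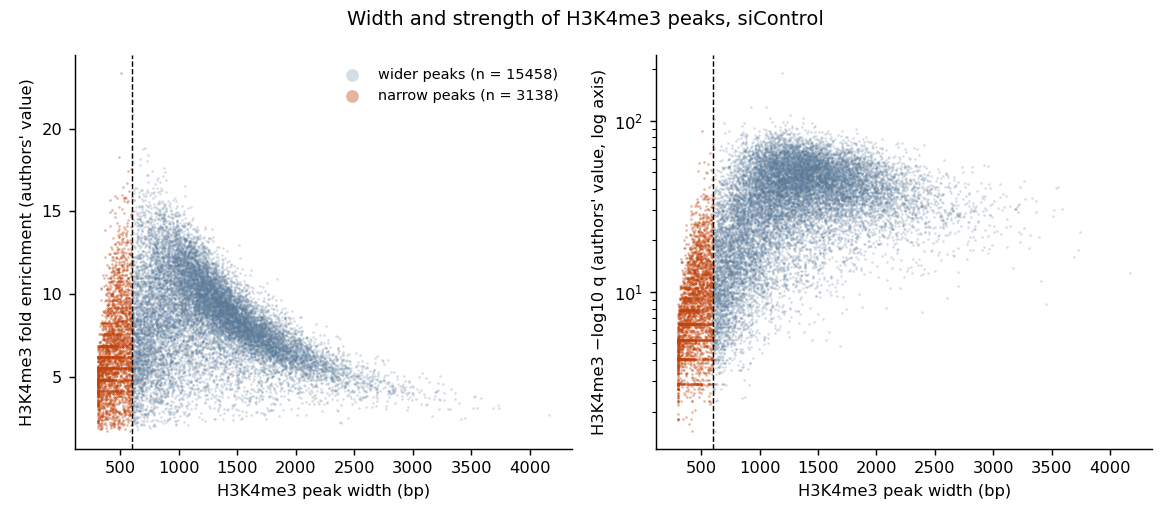
H3K4me3 peak width in bp against fold enrichment (left) and −log10 q on a log axis (right), 1 point per peak of the siControl H3K4me3 list. The dashed line marks 600 bp. Narrow peaks have a median fold of 5.98 and fall partly on horizontal bands of equal fold and q, and median fold is highest between 801 and 1000 bp.

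Many narrow peaks shared exactly the same strength. Of the 3138, 2236 (71.3%) had the same pair of fold and q as another narrow peak, and of the wider peaks 7103 (46.0%) shared theirs with another wider peak. The 6 commonest pairs held 660 peaks (21.0%), whereas the 6 commonest pairs of the wider peaks held 69 (0.446%). These 6 folds were 4.14, 4.83, 5.52, 6.21, 6.90 and 7.59, held by 104, 166, 160, 120, 78 and 32 peaks, and neighbouring folds lay 0.69 apart. They form the horizontal bands in the plot of width and strength. Among the 346 peaks of the smallest width, 83 shared a fold of 4.83, 50 a fold of 4.14 and 45 a fold of 5.52. Fold therefore does not rank the peaks that share a pair, although the 3138 narrow peaks held 1260 distinct pairs.

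Some narrow peaks were among the strongest of the list. The highest fold of all 18596 peaks belonged to the 506-bp region at chr3:73159814-73160319 (hg19, as are all positions), with a fold of 23.4 and a −log10 q of 86.9. Next among narrow peaks were chr21:48118940-48119422 with a fold of 18.3, chr11:71524396-71524983 with 17.6, chr12:96883242-96883803 with 17.4 and chr6:26365307-26365858 with 16.7. They ranked 7, 14, 15 and 26 in the list. The chromosome 3 and chromosome 21 regions carried a BG4 peak in all 3 conditions, and the other three carried none. The next H3K4me3 peak lay 17.5 to 113 kb away from these 5. At the other end, the 3 regions of smallest width that come first by position were chr1:1015705-1016009, chr1:1690325-1690629 and chr1:3612320-3612624, with folds of 4.33, 4.12 and 4.83.

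Narrow peaks lay closer to another H3K4me3 peak than wider ones did. The median gap, counted from edge to edge, was 17.7 kb (16.7 to 19.4 kb, n = 3135) for narrow and 27.4 kb for wider peaks. Another 3 narrow peaks were alone on their sequence. A gap under 5 kb was found for 766 narrow peaks (24.4%, 23.0 to 26.0) and for 12.8% of wider peaks. Under 1 kb these shares were 14.5% (455 peaks) and 5.53%. By 100 kb the shares had met, at 84.9% and 84.2%.

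**Figure D2:**
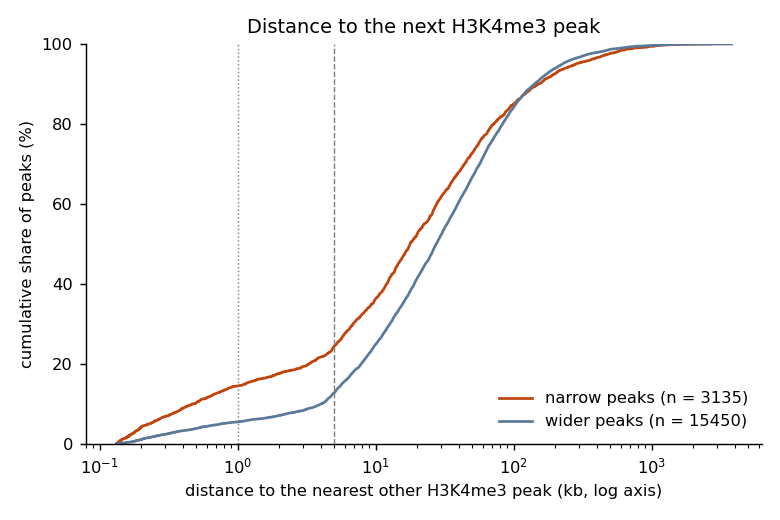
Cumulative share of H3K4me3 peaks by distance to the nearest other H3K4me3 peak (kb, log axis), for narrow and wider peaks. The dotted line is 1 kb and the dashed line 5 kb. The narrow curve lies above the wider one up to about 100 kb, with 24.4% against 12.8% of peaks at 5 kb.

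The close pairs were mostly a narrow peak beside a wider one, and wider peaks also make up most of the list. For narrow peaks with a gap under 1 kb the neighbour was narrow in 34.3%, beside 16.9% of the whole list. Peaks linked by gaps under 1 kb formed 369 chains that held a narrow peak. Of these, 268 consisted of 1 narrow and 1 wider peak and 69 held only narrow peaks. The longest had 4 peaks, 3 of them narrow, at chr17:19091040-19093899. Only 21 narrow peaks had a neighbour within 1 kb on both sides.

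The strength of a narrow peak varied with its distance to the neighbour. The 455 peaks with a gap under 1 kb had a median fold of 3.80, and the 311 at 1 to 5 kb had 4.43. At 5 to 20 kb the median was 6.21, and it was 6.72 both at 20 to 100 kb and beyond 100 kb. Significance did not follow the same order, with median −log10 q of 6.50, 7.60, 7.04, 7.85 and 7.78 from the nearest to the farthest bin. Spearman correlations with the gap were 0.43 for fold and 0.072 for −log10 q. The neighbour had the higher fold for 73.6% of narrow peaks under 1 kb and for 61.2% beyond 100 kb. It was itself narrow for 34.3% and 19.1%. The local background enters the fold, and its part in the low folds beside a neighbour was not tested.

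The smallest gap was 132 bp. It separated chr1:1015705-1016009 from a 706-bp peak whose fold was 7.07, and that narrow region carried BG4 peaks in both knockdown lists and not in siControl. These BG4 peaks, 1194 bp wide in siBAZ2A and 1248 bp in siBAZ2B, also spanned the 706-bp peak. Their summits lay 427 and 839 bp from that of the 305-bp region, and so outside it. The same gap separated chr3:132441544-132442099, with a fold of 4.50 and a BG4 peak in siBAZ2B alone, from a 962-bp peak whose fold was 10.7. Lastly it separated the narrow regions chr1:144340231-144340800, with a fold of 7.08, and chr1:144340933-144341383, with a fold of 9.63, neither of which carried BG4.

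The most isolated narrow peaks lay more than 1 Mb from any other. The farthest, chr13:83675957-83676476, had a gap of 2696 kb and a fold of 4.14. It was followed by chrY:4822443-4822814 with a gap of 1951 kb, chr9:10612716-10613103 with 1754 kb, chr8:138052930-138053234 with 1583 kb and chrX:28224941-28225482 with 1456 kb. Their folds were 7.59, 7.45, 4.83 and 10.1. None of the 5 carried a BG4 peak in any list, which was so for 88.8% of all narrow peaks.

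Narrow peaks made up a larger share of the H3K4me3 peaks on chromosomes 10 to 19 than elsewhere. On these 10 chromosomes 1649 of 8017 peaks were narrow (20.6%, 19.7 to 21.5). On the other 14 (1 to 9, 20 to 22, X and Y) 1377 of 9968 were (13.8%, 13.2 to 14.5). The share ran from 18.6% on chromosome 13 to 25.9% on chromosome 10 in the first block. In the second it ran from 10.7% on chromosome 7 to 15.9% on chromosome 8, apart from chromosome Y with 12 of 38 peaks (31.6%, 19.1 to 47.5). The mitochondrial sequence and the contigs held the other 112 narrow peaks of 611. The grouping of chromosomes was chosen after the values were seen.

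The completeness of the list followed the same grouping. Peak names carry running numbers in order of position, up to 20148, and 92.3% of the numbers are in the list. On chromosomes 10 to 19, 99.3% of the numbers were present and 58 of 8075 were absent. On the other 14 chromosomes, 88.4% were present and 1312 of 11280 were absent. Every chromosome from 10 to 19 kept at least 98.6% of its numbers, and every other chromosome at most 94.5%. With the absent peaks counted as all wide or all narrow, the narrow share would lie between 20.4% and 21.1% in the first block and between 12.2% and 23.8% in the second. By its label the list holds only peaks that several replicates share, so absent numbers can be calls that did not meet this rule. Why so few were absent on chromosomes 10 to 19 is not recorded in the sources used here. The part of the absent peaks in the chromosome pattern was not tested.

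The narrow peaks of the 2 blocks also differed in strength. Their median fold was 5.52 on chromosomes 10 to 19 and 6.21 on the other 14, and 27.8% against 19.8% had a −log10 q under 5. Of the 346 peaks of the smallest width, 220 lay on chromosomes 10 to 19 and 123 on the other 14. Distance held its contrast in both blocks. Median gaps were 15.2 kb for narrow and 20.7 kb for wider peaks on chromosomes 10 to 19, and 26.0 and 36.3 kb on the other 14. Shares within 5 kb were 24.4% against 15.1%, and 23.4% against 10.5%.

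**Figure D3:**
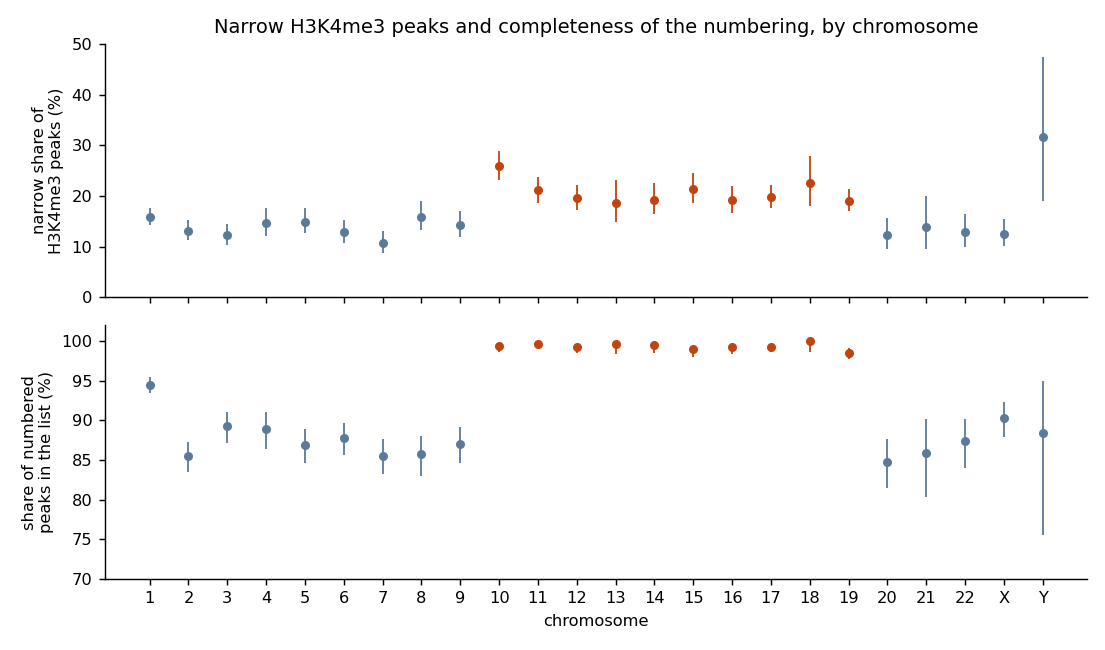
Narrow share of the H3K4me3 peaks of each chromosome (top) and share of its running peak numbers that are in the list (bottom), in percent, with 95% Wilson intervals. Chromosomes 10 to 19 are in orange; they hold 18.6% to 25.9% narrow peaks and keep at least 98.6% of their numbers. The lower axis starts at 70%.

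BG4 peaks were not part of the choice of members, and few narrow peaks carried one. Overlap means that at least 1 base was shared. In siControl 165 of 3138 narrow peaks (5.26%, 4.53 to 6.10) carried a BG4 peak, where 16.0% of all H3K4me3 peaks and 18.2% of the wider ones did. In siBAZ2A there were 210 (6.69%, 5.87 to 7.62), beside 21.1% of all and 24.0% of wider peaks. In siBAZ2B there were 239 (7.62%, 6.74 to 8.60), beside 23.4% of all and 26.6% of wider peaks. The order of the 3 conditions was that of the lengths of the lists, which hold 3332, 4257 and 4865 peaks. With every list limited to its 3332 peaks of highest fold, the shares of narrow peaks were 5.26%, 4.91% and 4.68% in siControl, siBAZ2A and siBAZ2B, the reverse order, with intervals that overlap.

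The contrast with wider peaks depended on what it was counted over. Per Mb covered, narrow peaks with BG4 numbered 120, 153 and 175 in siControl, siBAZ2A and siBAZ2B, and wider peaks with BG4 numbered 140, 185 and 205. A narrow peak can be reached by the edge of a BG4 peak centred outside it. When only H3K4me3 peaks that held a BG4 summit were counted, these densities were 107, 140 and 154 for narrow and 140, 184 and 204 for wider peaks. Counting BG4 in any of the lists, 350 narrow peaks (11.2%) carried one, against 33.1% of wider peaks, at densities of 256 and 255 per Mb. In the share per peak narrow regions stood below wider ones in every list. In density they stood below in each list but not for BG4 in at least 1 list. That last count used overlaps of 1 base and was not made with summits. For BG4 in all 3 lists the densities were 70.1 per Mb for narrow and 105 per Mb for wider peaks.

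Within the narrow peaks the share with BG4 was lowest at the smallest widths. It was 3.50% (2.61 to 4.69) in siControl at 305 to 400 bp, 6.57% (5.20 to 8.27) at 401 to 500 bp and 6.18% (4.79 to 7.94) at 501 to 600 bp. The next wider bin, 601 to 700 bp, had 7.59%, and peaks above 2000 bp had 34.7%. Of the 346 peaks of the smallest width, 28 carried BG4 in some list. Over all narrow peaks 350 of 3138 did (11.2%), and over all H3K4me3 peaks 29.4%.

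**Figure D4:**
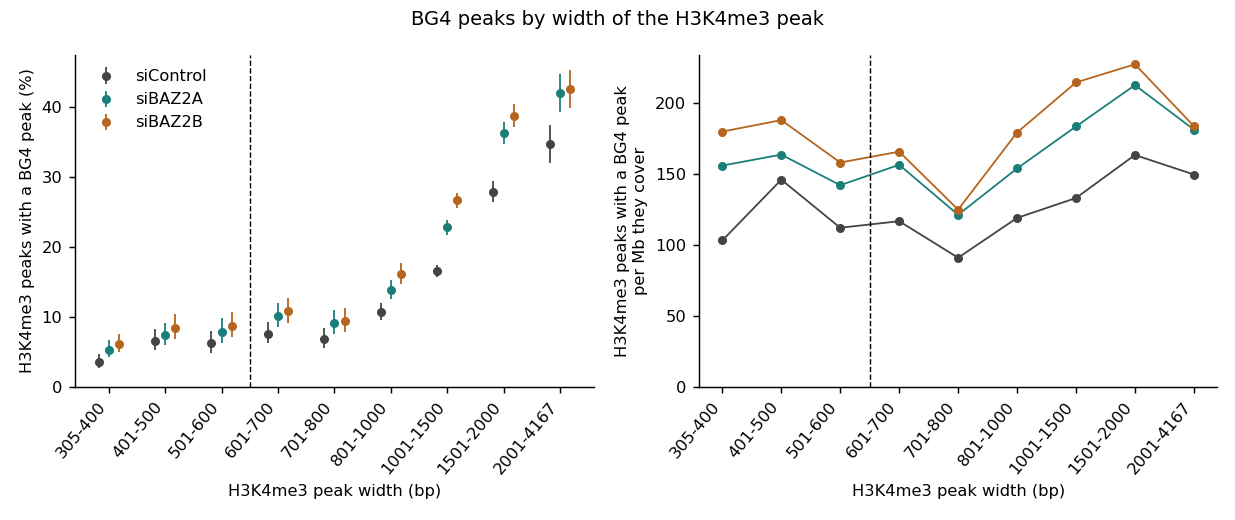
Share of H3K4me3 peaks with a BG4 peak in each list, in percent with 95% Wilson intervals (left), and the number of such peaks per Mb that the bin covers (right), by width of the H3K4me3 peak in bp. The dashed line marks 600 bp. In siControl the share goes from 3.50% in the narrowest bin to 34.7% in the widest, and the density from 103 to 150 per Mb, with its lowest value, 90.9, at 701 to 800 bp.

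The share with BG4 was higher in the 2 stronger parts when narrow peaks were divided into 4 equal parts by H3K4me3 fold. From the weakest part to the strongest it was 4.46%, 3.70%, 6.51% and 6.37% in siControl, and 5.61%, 6.12%, 7.78% and 7.26% in siBAZ2A. In siBAZ2B it was 5.86%, 7.53%, 7.91% and 9.17%. The intervals of the weakest and the strongest part overlapped in each list, as in siBAZ2B with 4.42 to 7.73% and 7.35 to 11.4%. By distance, narrow peaks 1 to 5 kb from a neighbour carried BG4 in 8.36% of cases in siControl (5.77 to 12.0), and those under 1 kb in 3.74% (2.35 to 5.90). These 2 intervals overlapped slightly. The share was 5.92% at 5 to 20 kb, 4.91% at 20 to 100 kb and 4.24% beyond 100 kb, so it showed no steady trend with distance.

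The chromosome blocks differed in BG4 as well. Narrow peaks carried BG4 in 6.43%, 7.82% and 8.85% of cases on chromosomes 10 to 19, in siControl, siBAZ2A and siBAZ2B, and in 3.78%, 5.37% and 6.25% on the other 14. Wider peaks carried it in 21.6%, 27.3% and 29.9%, and in 16.0%, 22.3% and 24.7%. The lower share per peak at narrow regions was thus present in both blocks and all 3 lists.

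Across the lists, 96 narrow peaks (3.06%, 2.51 to 3.72) carried BG4 in all 3 conditions, where 11.9% of all H3K4me3 peaks and 13.6% of wider ones did. The pattern seen in siBAZ2B alone held 89 narrow peaks, siBAZ2A alone 59, both knockdowns without siControl 37, and siControl alone 34. As shares these were 2.84%, 1.88%, 1.18% and 1.08% of narrow peaks, beside 5.74%, 3.73%, 5.41% and 1.56% of wider ones. Another 18 had BG4 in siControl and siBAZ2A, and 17 in siControl and siBAZ2B. Of the 165 narrow peaks with BG4 in siControl, 114 (69.1%, 61.7 to 75.6) had it in siBAZ2A and 113 (68.5%, 61.0 to 75.1) in siBAZ2B. At wider peaks these shares were 81.6% and 84.7%. A wider peak has more room to be reached by a different BG4 peak in each list, and the part of width in these shares was not tested. Both knockdown lists are set against the same siControl list, so these counts are not independent.

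BG4 peaks at narrow regions were themselves small and centred near the H3K4me3 summit. Their median width was 474, 456 and 474 bp in siControl, siBAZ2A and siBAZ2B, against 627, 569 and 588 bp at wider H3K4me3 peaks. The summits of the 2 marks lay a median of 60, 61 and 75 bp apart, against 129, 129 and 133 bp at wider peaks, where there is more room for them to part. The BG4 summit lay inside the narrow region for 88.5%, 91.4% and 88.3% of pairs. The bases common to both peaks were a median of 66.8%, 67.5% and 65.8% of their joint length. The BG4 peak was the wider of the pair at 94, 99 and 134 narrow regions, and no narrow region carried more than 1 BG4 peak of a list.

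**Figure D5:**
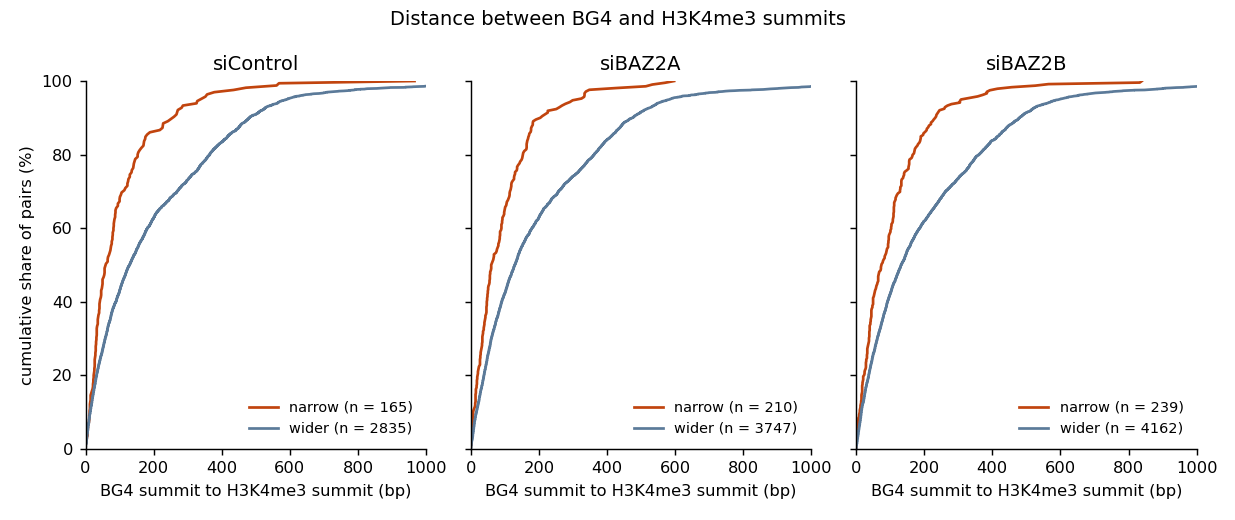
Cumulative share of overlapping pairs by the distance in bp between both summits, BG4 and H3K4me3, for narrow and wider H3K4me3 peaks, in the 3 BG4 lists; the axis stops at 1000 bp. The median for narrow peaks is 60, 61 and 75 bp, and for wider peaks 129, 129 and 133 bp.

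The 96 regions with BG4 in every condition lay on 26 chromosomes and contigs, with 60 of them on chromosomes 10 to 19. Their median H3K4me3 fold was 7.0, against 5.93 for the 2788 narrow peaks with no BG4. Their BG4 folds ran from 1.88 to 21.4 in siControl (median 7.35), from 2.16 to 19.0 in siBAZ2A (median 7.60) and from 1.89 to 19.8 in siBAZ2B (median 6.81). In the siControl list 54 of the 96 lay above the median fold of that list, in siBAZ2A 56 and in siBAZ2B 57, and 37 did so in all 3. The small H3K4me3 region thus carried BG4 peaks over nearly the whole range of strength of each list.

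The strongest of the 96 in siControl was again chr3:73159814-73160319. Its BG4 folds in siControl, siBAZ2A and siBAZ2B were 21.4, 18.1 and 19.0, with BG4 summits 42, 0 and 5 bp from the H3K4me3 summit. The region with the highest H3K4me3 fold of the list was therefore also among the strongest of each BG4 list, at rank 6, 9 and 11. Next came chr1:31904510-31905040, with BG4 folds of 20.4, 15.6 and 19.2 in siControl, siBAZ2A and siBAZ2B. The region chr1:236260299-236260792 had 19.0, 19.0 and 19.8. Both had a strong H3K4me3 peak of 15.8 and 13.6 fold. No filter for repeated or poorly mappable sequence was applied here to the regions named. The part of such sequence in high folds was not tested.

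The following regions by siControl BG4 fold differed in H3K4me3 strength. At chr2:33141243-33141708, with an H3K4me3 fold of 10.5, the BG4 folds were 18.9, 9.47 and 8.45 in siControl, siBAZ2A and siBAZ2B, at ranks 11, 592 and 487 of lists of unequal length. At chr10:133972153-133972461, only 309 bp wide with an H3K4me3 fold of 6.21, they were 15.6, 8.15 and 11.2. Folds of different lists stand side by side here as the authors' values, with no error, and no change is read from them. At chr7:9864-10304, with an H3K4me3 fold of 6.90, the BG4 folds were 16.1, 12.3 and 18.4.

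The other four of the 10 strongest follow. They were chr12:95320-95877 with siControl, siBAZ2A and siBAZ2B folds of 18.2, 16.5 and 17.0, and chr16:1075136-1075640 with 17.8, 16.4 and 16.4. The next was chr1:249239959-249240478 with 16.7, 16.1 and 19.1, and the last chr11:134526434-134526980 with 15.2, 13.2 and 11.9. Of the 10 strongest regions, 6 lay within 5 Mb of an end of their chromosome, and 4 within 100 kb. The ends were taken as position 1 and the last peak of any list on that chromosome. A region at or beside that last peak is therefore near an end by construction. This holds for chr1:249239959-249240478 and chr11:134526434-134526980, which lay 4.7e-05 and 0.000108 Mb from the last peak. Their distance to the true chromosome end was not measured.

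That location was shared more widely. On chromosomes 1 to 22, X and Y, 31 of 91 narrow regions with BG4 in all 3 lists lay within 5 Mb of an end (34.1%, 25.2 to 44.3). The share was 13.5% (12.3 to 14.7) over all narrow peaks there, 12.4% over narrow peaks with no BG4, and 17.6% (16.0 to 19.3) over wider peaks with BG4 in all 3 lists. The intervals of the first and the last did not overlap, but the distance was chosen after the values were seen and the difference was not tested. Within 100 kb of an end lay 7 of the 91 regions (7.69%, 3.78 to 15.0), against 1.02% of all narrow peaks. Wider peaks with BG4 in all 3 lists had 0.724% there, and this was not tested either. The last peak that set an end could come from a BG4 list. A region with BG4 can thus set the end it lies near, which raises such shares over those of all narrow peaks by construction.

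The lowest siControl BG4 fold among the 96 belonged to a broad BG4 peak. At chrM:16075-16450, on the mitochondrial genome, the 376-bp H3K4me3 region lay under BG4 peaks of 3629, 3500 and 3484 bp in siControl, siBAZ2A and siBAZ2B, with folds of 1.88, 2.16 and 1.89. Mitochondrial DNA is not packed in histones. On chromosomes, chr14:103539383-103539950 had BG4 folds of 4.10, 5.53 and 4.91, and chr15:90754797-90755322 had 4.50, 5.01 and 7.53. The regions chr12:6387504-6388063, with 4.75, 6.92 and 5.17, and chr17:79961436-79961982, with 4.86, 7.35 and 5.34, completed the 5 lowest.

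Of the 37 narrow regions with BG4 in both knockdowns and not in siControl, the strongest by siBAZ2A fold was chr12:127650341-127650893, with 10.2 in siBAZ2A and 10.2 in siBAZ2B. It was followed by chr7:129649879-129650357 with 9.64 and 6.55, chr11:13237699-13238161 with 8.60 and 6.09, chr17:43201611-43201955 with 8.53 and 6.04, and chr2:86191071-86191509 with 8.45 and 8.01. In these 5 the summits of BG4 and H3K4me3 lay between 4 and 143 bp apart. None of the 5 lay within 5 Mb of a chromosome end, where 13.5% of all narrow peaks did.

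Of the 34 narrow regions with BG4 in siControl alone, the strongest by siControl BG4 fold was chr17:38108762-38109174 with 11.2. That BG4 peak was 888 bp wide with its summit 568 bp from that of the region, whose next H3K4me3 peak began 180 bp away, so the overlap was by its flank. The next 4 were chr17:42620629-42621124 with 9.21, chr1:24320224-24320553 with 8.76, chr19:4145559-4145998 with 7.05 and chr10:24945510-24945951 with 7.01. At these 4 the summits lay 11, 36, 7 and 80 bp apart. A region without a BG4 peak in a list may have missed the caller's threshold or the rule of presence in several replicates, and was not shown to lack the signal.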

How the data were processed

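Per the labels, a group's list holds the peaks that 2 or more replicates share, at the positions of the replicate whose list was longest. Run numbers in the peak names do not all match the labelled replicates, so which replicate gave the positions is unsettled. The submitters' processing notes name Bowtie2 2.4.5, Picard, SAMtools 1.15.1, bedtools, MACS2 2.1.4, and hg19 and dm6. In the deposited lists, fold enrichment is a ratio, significance is a −log10 q-value, and the deposited score column was not used. Use of the spike-in for scaling is not stated in these sources. Overlaps, gaps, 95% Wilson intervals and order-statistic intervals of medians were computed in Python 3.11.15 with SciPy 1.17.1 and pandas 2.3.3, after tests on simulated data. No reference of the hg19 build was used, so no genes or sequences are named. The members, lists and alternatives were chosen with earlier results of these data known. Regions named were the 5 strongest and the 3 narrowest, the 5 most isolated and 3 nearest to a neighbour. Among those with BG4 in all 3 lists, the 10 highest and 5 lowest by siControl BG4 fold were named, and the 5 highest with BG4 in both knockdowns alone or in siControl alone. Peaks of a list share libraries and are not replicates.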

Additional observations from a re-analysis of the deposited data

How the results depend on the processing

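No paired analysis was possible because the list of a group holds no values per replicate. For the same reason, leaving out a replicate was not possible. Of 62 alternative values for 8 results, 28 stayed within the main interval, or within 1.5 times a count, and 34 did not. The planned motif and promoter analysis was not run. Shares of narrow peaks with BG4 are given as siControl, siBAZ2A and siBAZ2B. With a reciprocal overlap of 50% they were 4.40%, 5.77% and 6.50%, and with BG4 peaks of −log10 q of at least 5 they were 4.24%, 5.23% and 5.64%. BG4 lists of equal length gave 4.91% in siBAZ2A and 4.68% in siBAZ2B, a BG4 summit inside the region gave 6.72% in siBAZ2B, and a width limit of 700 bp gave 7.63% in siBAZ2A. Chromosomes 10 to 19 gave 6.43%, 7.82% and 8.85%, and the other 14 gave 3.78%, 5.37% and 6.25%. The number with BG4 in all 3 lists was 62 with lists of equal length, 60 and 159 at width limits of 500 and 700 bp, and 60 and 31 in the blocks. The number of narrow peaks was 1649 and 1377 in the blocks, whose alternatives were added after seeing the data, fewer peaks being counted in each. Median fold was 5.52 at 500 bp, 6.21 at 700 bp, 6.76 with −log10 q of at least 5, and 5.52 and 6.21 in the blocks. Median distance was 20.8 kb with H3K4me3 peaks of −log10 q of at least 5, and 15.2 and 26.0 kb in the blocks. The share with a neighbour within 5 kb was 17.6% at 2 kb, 36.3% at 10 kb and 22.2% from summit to summit. Apart from limits that count fewer or more peaks by construction, the cause was not tested.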

Other observations

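The contigs outside the main chromosomes held 111 narrow peaks among 608 H3K4me3 peaks (18.3%, 15.4 to 21.5), the mitochondrial sequence left aside. The alternative haplotype of chromosome 17 held 12 narrow peaks among 27, the largest share of any contig with more than 10 peaks. None of the 12 carried BG4, which was so for 88.8% of all narrow peaks. In the BG4 lists the share of running peak numbers present was 42.3%, 54.1% and 58.5% on chromosomes 10 to 19 in siControl, siBAZ2A and siBAZ2B. On the other 14 chromosomes it was 35.6%, 50.7% and 52.3%.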
